A study of Mus musculus with 12 samples.

Results

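Fatty acid binding and activation genes encode the proteins that take up fatty acids, hold them in the cytosol and turn them into acyl-CoA esters. The 9 genes described here were chosen by symbol: the fatty acid binding proteins Fabp1, Fabp2, Fabp4, Fabp5 and Fabp7, the acyl-CoA binding protein Dbi, the long-chain acyl-CoA synthetases Acsl3 and Acsl4, and the transport protein Slc27a4. The choice was made with earlier results of these data known. All 9 were found among the 25033 entries of the mouse liver Ribo-seq table. Ribo-seq sequences the stretches of mRNA that ribosomes shield from RNase (ribosome protected fragments, RPFs), so its values follow how many ribosomes sat on a gene's mRNA. The HFD group was male C57BL/6 mice given high-fat feed from 8 weeks of age for 8 weeks and sampled at 16 weeks. The LYC group had the same strain, sex, age and high-fat feed, with 0.33% by weight of lycopene, a tomato carotenoid, mixed into it. Each group had 3 Ribo-seq libraries, named HFD1 to HFD3 and LYC1 to LYC3. The LYC samples' treatment label names the high-fat feed only, and lycopene was taken from the sample titles and the study's methods. Per the labels, material was pooled ahead of library making without saying over how many mice. The study's Ribo-seq methods also mention pooling of digested samples, whereas its results call the libraries biological replicates. Where libraries do not stand for separate mice, p-values measure the spread of these libraries, which may be technical.

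Free fatty acids are poorly soluble, and the small FABP proteins carry them between membranes, organelles and enzymes. The ACSL and SLC27 enzymes join a fatty acid to coenzyme A, the step that commits it to oxidation, esterification or membrane lipids, and Dbi holds the acyl-CoA product. Fabp1 is the liver form and among the most abundant cytosolic proteins of hepatocytes, while the other FABP members are better known from gut, fat, skin or brain.

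Values are RPKM, reads scaled to the transcript's length and to the library's reads. The length used exceeded the coding length by different factors. Coding and used lengths were 381 and 512 bases for Fabp1, 261 and 587 for Dbi, 396 and 965 for Fabp2, and 2133 and 5280 for Acsl4. Levels and ratios between genes therefore also depend on the length used. The HFD libraries held 2726202, 4405541 and 834410 reads and the LYC libraries 394461, 311050 and 412116, as recovered from the steps of the RPKM values. On a transcript of 1000 bases, a single read counted for 2.43 to 3.21 RPKM in LYC against 0.227 to 1.20 RPKM in HFD, so low members were measured more coarsely in LYC. Small non-coding RNA genes held a larger part of the reads in LYC (8.43% to 13.0%) than in HFD (2.47% to 3.94%). All 7 hepatocyte markers had footprints in every library (Alb, the albumin gene, at 13379 RPKM or more), and the summed level of these markers was 45786 to 48819 RPKM in HFD and 30355 to 40883 RPKM in LYC. Alb made up most of this gap, with a mean of 27134 RPKM in HFD and 17046 in LYC and overlapping groups after adjustment between libraries. Apoa1, an apolipoprotein of high-density lipoprotein, had a mean of 4082 RPKM in HFD and 5061 in LYC. Ahsg (fetuin-A) went the other way, with means of 2328 and 1182 RPKM and no overlap between groups on either scale, and Fgb (fibrinogen beta chain) had 1497 and 893 RPKM. None of the 7 markers was called. In bulk liver, fewer cells of a type and less RNA per cell cannot be told apart.

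Footprints on 3 of the 9 genes were higher in LYC. These were Fabp2, Acsl4 and Dbi, 2.35-, 2.54- and 2.16-fold by group means on the scale adjusted between libraries, and none of the 9 was called lower. A call required a log2 fold change beyond 1 in size and an unadjusted p below 0.01 in limma's test on log2(RPKM divided by the library's TMM factor, plus 1), where TMM is edgeR's trimmed-mean scaling. The filter on low reads left 7 of the 9 to be tested, so the 3 calls are of 7, beside 7.02% of all 5759 genes called higher and 6.29% called lower. The median log2 fold change was 1.11 over the 7 tested members and -0.10 over all genes tested. Since the members were chosen with earlier results known, these values only describe them, and a difference from other genes was not tested. Transcript length moved with this result. Of the 511 tested genes of at most 1000 bases, 27.2% were called higher and the median log2 fold change was 0.55. For the 2066 genes above 4000 bases these values were 2.37% and -0.26. Small non-coding RNA genes among those tested were kept in these classes and in the length trend removed below. Their part in this trend was not tested. Fabp1, Dbi, Fabp5 and Fabp2 belong to the short class, and Acsl4, at 5280 bases, and Slc27a4, at 4054 bases, to the long one. With the stricter limit of an unadjusted p below 0.001, none of the members was called. The calls also rest on the scaling. With RPKM as deposited, that is scaled by total reads only, none of the members was called higher (log2 fold changes of 0.92 for Fabp2, 0.94 for Acsl4 and 0.81 for Dbi, with limma adjusted p-values of 0.0687, 0.0954 and 0.0876), and Slc27a4 was called lower. Over all genes this scaling moved the median log2 fold change from -0.10 to -0.36 and the calls from 404 higher and 362 lower to 235 higher and 648 lower.

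**Figure D1:**
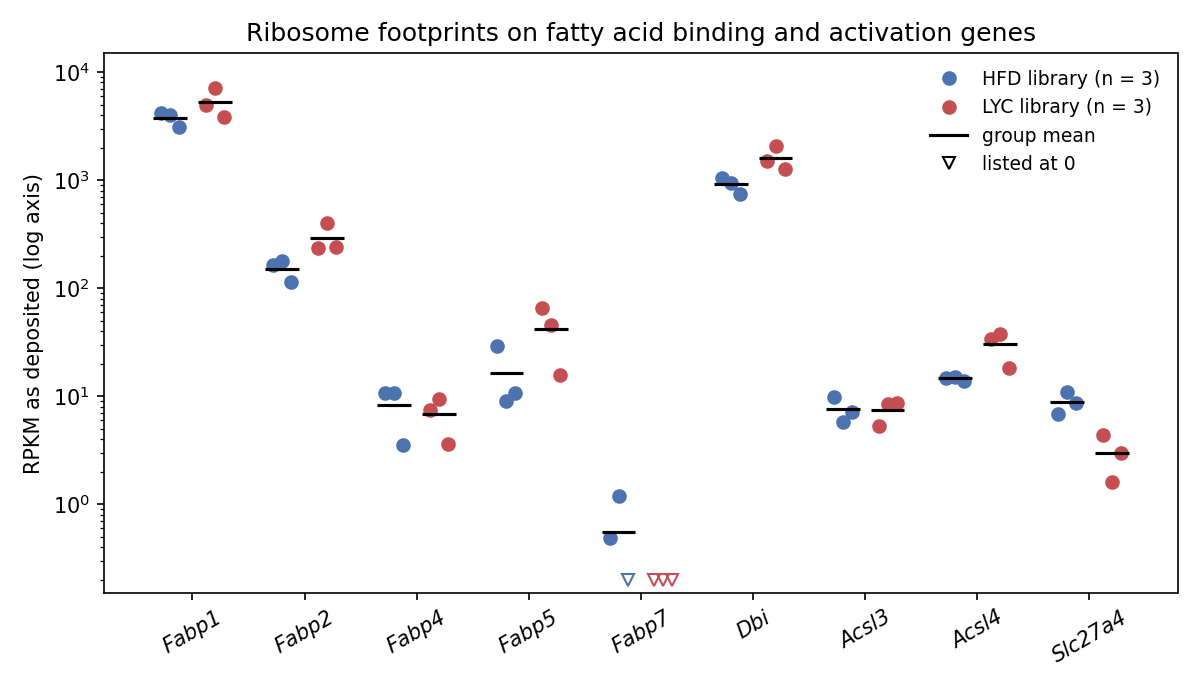
RPKM as deposited (log axis) of the 9 genes in each of 3 HFD and 3 LYC libraries, with points for libraries, horizontal lines for group means and open triangles for values listed at 0. The LYC points of Fabp2, Dbi and Acsl4 all lie above the HFD points, those of Slc27a4 all lie below, and levels run from 7089 RPKM for Fabp1 in LYC2 down to 0 for Fabp7.

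The levels spanned more than 3 orders of magnitude and their upper ranks were alike in both groups. Fabp1 stood first, followed by Dbi and then Fabp2, with no overlap between the library ranges of these neighbours in either group. In HFD the next genes, Acsl4, Fabp5, Fabp4, Slc27a4 and Acsl3 in order of their medians, each overlapped in range with the next in order. In LYC Fabp5 and Acsl4 overlapped with each other and stood apart from Acsl3, Fabp4 and Slc27a4, which overlapped in that order. Fabp7 was last in both.

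The upstream regions of Fabp1, Fabp2 and Acsl4 are shown because the LYC values of these genes lay above all HFD values on the scale adjusted between libraries. Each is the 250 bases before the transcription start in the RefSeq annotation of GRCm38.p6, read 5′ to 3′ on the gene's strand. For Fabp1 the GENCODE annotation starts the gene at 71199827, inside the window shown, so its motif positions hold for the RefSeq start only. Windows of 6 of the 9 genes were searched, and those of Fabp4, Fabp5 and Dbi were not used here. Capitals mark matches, on either strand, to a direct repeat of AGGNCA with any 1 base between its copies (the half-site arrangement known for PPAR and HNF4 receptors), to TATAAA (the TATA box), to CCAAT (the CCAAT box) or to GGGCGG (the GC box), and overlapping matches run together.
Fabp1, chr6:71199629-71199878, plus strand: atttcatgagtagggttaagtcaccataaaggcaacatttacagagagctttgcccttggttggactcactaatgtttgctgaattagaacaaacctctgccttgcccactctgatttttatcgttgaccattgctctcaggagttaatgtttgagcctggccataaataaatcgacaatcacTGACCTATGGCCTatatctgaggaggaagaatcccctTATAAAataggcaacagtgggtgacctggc
Fabp2, chr3:122894822-122895071, plus strand: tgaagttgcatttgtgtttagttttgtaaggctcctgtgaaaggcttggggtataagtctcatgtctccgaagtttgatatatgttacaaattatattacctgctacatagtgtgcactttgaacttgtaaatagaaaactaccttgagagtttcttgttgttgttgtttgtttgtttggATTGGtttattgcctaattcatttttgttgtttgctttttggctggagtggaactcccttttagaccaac
Acsl4, chrX:142390536-142390785, minus strand: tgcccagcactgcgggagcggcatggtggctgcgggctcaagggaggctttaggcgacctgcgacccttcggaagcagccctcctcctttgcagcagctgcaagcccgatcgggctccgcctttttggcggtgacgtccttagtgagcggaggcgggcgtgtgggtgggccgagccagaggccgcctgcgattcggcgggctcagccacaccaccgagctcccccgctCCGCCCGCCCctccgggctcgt

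The repeat occurred in 0.338% of 32851 promoter windows of this length and, among the 6 windows searched, in Fabp1 alone, where it began at base -67 from the start. Fabp1 also held TATAAA, at base -30, a motif found in 12.4% of all windows. Fabp2 held a single CCAAT match at base -70 (33.8% of all windows), and Acsl4 held 2 GC boxes (32.7% of all windows). GC content was 42.8% for Fabp1, 35.6% for Fabp2 and 70.8% for Acsl4. A match is a string of letters and says nothing about binding in these livers.

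Fabp1 (chromosome 6, 71199827 to 71205023, plus strand in GENCODE on GRCm38) encodes the liver fatty acid binding protein. It had 4149, 4041 and 3069 RPKM in HFD1 to HFD3 and 4932, 7089 and 3839 RPKM in LYC1 to LYC3. LYC1 and LYC2 lay above all HFD libraries and LYC3 lay below HFD1 and HFD2, so the groups overlapped as deposited. After TMM scaling the HFD values were 2976 to 3974 and the LYC values 4197 to 7057, without overlap. The log2 fold change was 0.76 (SE 0.31), with an adjusted p = 0.148 in limma, and it was not called. With 810 reads or more in every library, counting error was small for this gene. With small non-coding RNA genes left out of the ranking, it stood between 7th and 14th by RPKM in each of the 6 libraries. When each library's trend with transcript length was removed, the log2 fold change was 0.20.

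Fabp2 (chromosome 3, 122895072 to 122899506, plus strand) encodes the intestinal fatty acid binding protein. The HFD libraries had 163, 177 and 113 RPKM, and the LYC libraries 236, 396 and 239 RPKM. Every LYC library lay above every HFD library, and LYC2 was the highest. The means were 151 ± 33.5 (SD, n = 3) and 291 ± 91.7 (SD, n = 3). Fabp2 was higher in LYC by a log2 fold change of 1.22 (SE 0.26, 95% interval 0.64 to 1.80), with an adjusted p = 0.0205 in limma. The values rest on 1271 reads in HFD and 304 in LYC. Removing the length trend left 0.91, below the fold limit, while the call, which uses the unadjusted p, held without any single library (1.04 to 1.33). In these fits with fewer libraries the adjusted p in limma ran from 0.0182 without LYC3 to 0.111 without HFD3.

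Fabp2 is best known from enterocytes, and markers of these cells were at or near 0. Sis, Lct, Alpi, Cdx1 and Cdx2 had no reads in any library and Vil1 had 1 read in all. The remaining marker, Apoa4, an apolipoprotein that liver also makes, was at 288 to 439 RPKM in HFD and 245 to 603 RPKM in LYC, with overlapping groups.

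Fabp5 (chromosome 3, 10012548 to 10016607, plus strand) encodes the epidermal form, known from skin, macrophages and endothelium. Levels in HFD1 to HFD3 were 29.2, 9.02 and 10.8 RPKM, and those in LYC1 to LYC3 65.0, 45.3 and 15.6 RPKM. HFD1 lay above LYC3, so the groups overlapped. The log2 fold change of 1.56 (SE 0.62) was the highest of the 7 tested members and had the widest error, with an adjusted p = 0.136 in limma, and it was not called. It passed the call limits without HFD1 (2.06) or without LYC3 (2.13), and the other libraries left out gave 1.04 to 1.47. The LYC values rest on 20, 11 and 5 reads.

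Reads of Fabp5 cannot be assigned with certainty. Of the 378 windows of 28 bases in its coding sequence, a length near that of a footprint chosen here, 85.4% recur elsewhere in GRCm38, mostly in processed pseudogenes. Gm6166 holds 272 of the windows in its transcripts, and 272 lie inside Gm18103 but outside its annotated transcripts. None of the Fabp5 pseudogenes found is listed in the table by name. Copies also lie inside the protein-coding genes Cfap53 (170 windows) and Mpp7 (69 windows), outside their annotated transcripts. Both genes are listed, with 0 reads for Cfap53 and 129 for Mpp7 over all libraries. For Dbi the share was 15.8% of 234 windows, all in Gm12222 and 4933405E24Rik, and for the other 7 genes it was 0%. How reads that fit several places were counted is not given in the sources used here.

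Fabp4 (chromosome 3, 10204088 to 10208576, minus strand) encodes the adipocyte form, also known from macrophages and endothelium. It had 10.8, 10.7 and 3.52 RPKM in HFD against 7.45, 9.44 and 3.56 RPKM in LYC, with overlapping groups. The LYC values stand for 2, 2 and 1 reads, and the gene fell below the read filter. The exact permutation test of the deposited values gave p = 0.60 (two-sided, smallest possible p 0.10, n = 3 per group). The size of difference that could be detected at this depth was not measured. Counting error alone gave the LYC2 value an exact Poisson interval of 1.14 to 34.1 RPKM.

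Fabp7 (chromosome 10, 57784881 to 57788450, plus strand) encodes the brain form. It had 1 read in HFD1, 4 in HFD2 and none in the remaining libraries, which gave 0.481, 1.19 and 0 RPKM in HFD and 0 in LYC. A count of 0 allows up to 9.55 to 12.7 RPKM in the LYC libraries (3 reads), and the exact 95% Poisson intervals of these values reach 11.7 to 15.6 RPKM. Both limits lie above every HFD value, so no fold is given. The glial markers Gfap and S100b had no reads in any library, and Sox10 had 1. The most abundant of that list, Mbp, had 61 reads in HFD and 6 in LYC.

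Markers of the other cells known for Fabp4 and Fabp5 were present. Summed over 10 Kupffer cell and macrophage markers, levels were 177 to 223 RPKM in HFD and 150 to 227 RPKM in LYC, and none of the 8 tested was called. The 3 most abundant, Cd5l, Clec4f and C1qa, were not called either. The 10 endothelial markers summed to 121 to 166 RPKM in HFD and 46.5 to 193 RPKM in LYC, where LYC2 was the lowest library. Of the 8 tested, Eng was called lower, with a log2 fold change of -1.38, while Dpp4 and Clec4g were not called. Pecam1, just inside the fold limit at -0.9999 (adjusted p = 0.075 in limma, not called) and chosen after its values were seen, also had every LYC library below every HFD library. The other tested endothelial markers overlapped between the groups and were not called. Their log2 fold changes were 0.52 for Cdh5, -0.03 for Stab2, -0.15 for Clec4g, -0.30 for Dpp4, -0.49 for Kdr and -0.56 for Stab1. Of the 7 adipocyte markers, Plin1, Lep and Retn were at 0 in all libraries and Adipoq had 3 reads in HFD and none in LYC. The list summed to 4.42 to 6.53 RPKM in HFD and 2.97 to 49.0 RPKM in LYC, carried by Cidec and Cfd in LYC2 and LYC3. The part of these cells in the values of Fabp4 and Fabp5 was not tested.

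Dbi (chromosome 1, 120113280 to 120121078, minus strand) encodes the acyl-CoA binding protein, also called diazepam-binding inhibitor. Levels in HFD were 1050, 938 and 745 RPKM, and those in LYC 1516, 2059 and 1273 RPKM. All LYC libraries lay above all HFD libraries. The means were 911 ± 154 and 1616 ± 403 (SD, n = 3 each). Dbi was higher in LYC by a log2 fold change of 1.11 (SE 0.27, 95% interval 0.49 to 1.72), with an adjusted p = 0.0335 in limma. The values rest on 4472 reads in HFD and 1035 in LYC. At 587 bases its transcript is the second shortest of the 9 genes, and with the length trend removed the log2 fold change was 0.61 (adjusted p = 0.123 in limma). The call was also lost with TMM taken before the filter on low reads (0.95, chosen after seeing the data), with RPKM as deposited (0.81) and without HFD2 (0.97), HFD3 (0.99), LYC1 (1.04) or LYC2 (0.99), in fits with fewer libraries.

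**Figure D2:**
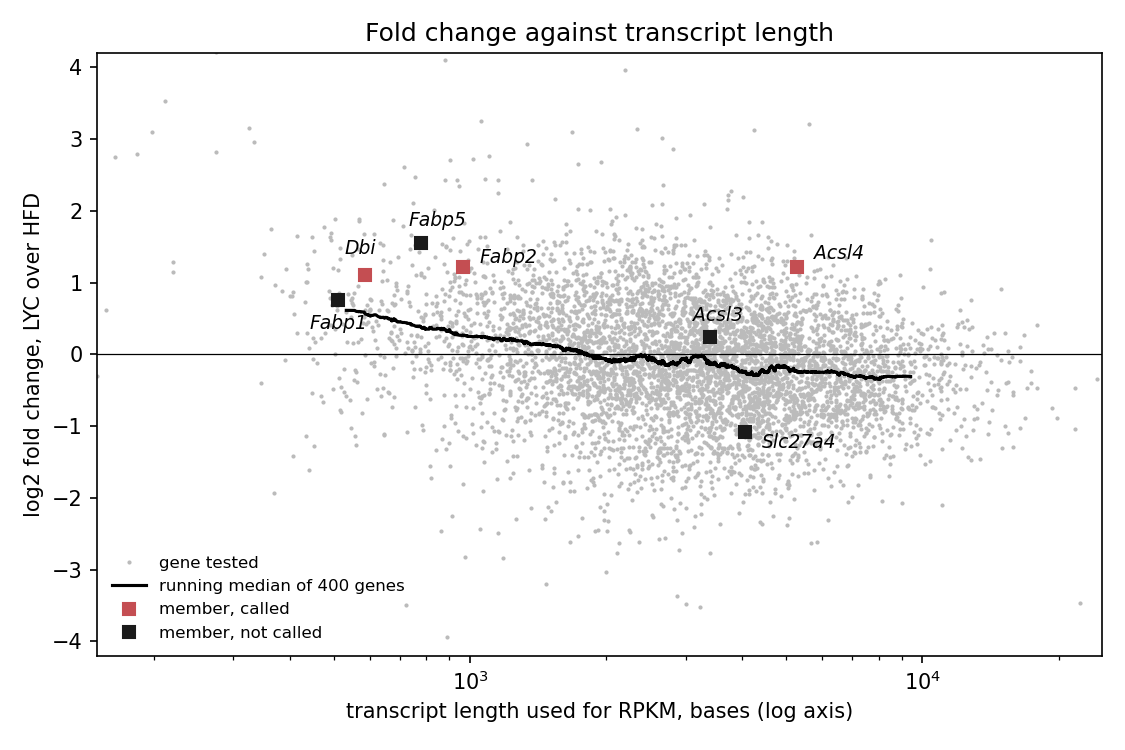
Log2 fold change of LYC over HFD (vertical axis) against the transcript length used for RPKM (log axis, bases) for the tested genes (grey, with 128 of 5759 outside the axes), with a running median of 400 genes (line) and the 7 tested members as squares, red where called. The line falls with length, Fabp1 lies near it, and Acsl4 and Slc27a4 lie far above and below it.

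Acsl4 (chromosome X, 142317993 to 142390535, minus strand) encodes a long-chain acyl-CoA synthetase that prefers arachidonic acid and related polyunsaturated fatty acids and is known for its role in ferroptosis. Levels in HFD were 14.7, 15.2 and 13.8 RPKM, and those in LYC 34.1, 37.8 and 18.4 RPKM. The HFD libraries lay close together, all LYC libraries lay above them, and LYC3 was the nearest to HFD. The means were 14.6 ± 0.670 and 30.1 ± 10.3 (SD, n = 3 each). Acsl4 was higher in LYC by a log2 fold change of 1.22 (SE 0.33, 95% interval 0.47 to 1.97), with an adjusted p = 0.0471 in limma. The values rest on 625 reads in HFD and 173 in LYC. Acsl4 kept its call when the length trend was removed (1.43). It lost the call when any library other than LYC3 was left out, with log2 fold changes of 0.999 to 1.24 and adjusted p-values of 0.0895 to 0.162 in limma.

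Acsl3 (chromosome 1, 78657825 to 78707743, plus strand) encodes the synthetase known from the endoplasmic reticulum and lipid droplets. The HFD libraries had 9.84, 5.75 and 7.07 RPKM, and the LYC libraries 5.23, 8.53 and 8.58 RPKM. The groups overlapped throughout. The log2 fold change was 0.24 (SE 0.34, 95% interval -0.55 to 1.02), with an adjusted p = 0.678 in limma, and its sign turned when RPKM was used as deposited (-0.02) or HFD2 was left out (-0.06). Acsl3 and Acsl4 are alike at 65.5% of aligned coding bases but share no window of 28 bases.

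Slc27a4 (chromosome 2, 29802634 to 29817522, plus strand) encodes FATP4, a transport protein with acyl-CoA synthetase activity towards very long chains. It had 6.79, 10.9 and 8.57 RPKM in HFD against 4.38, 1.59 and 2.99 RPKM in LYC. All LYC libraries lay below all HFD libraries, the reverse of the order seen for the called members. The log2 fold change was -1.08 (SE 0.40, 95% interval -1.98 to -0.18), with an adjusted p = 0.114 in limma, and it was not called. The LYC values stand for 7, 2 and 5 reads, and the LYC2 value had an exact Poisson interval of 0.192 to 5.73 RPKM. It was called lower with RPKM as deposited (-1.33, adjusted p = 0.0507 in limma) and without LYC1 (-1.42, adjusted p = 0.0643).

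After TMM scaling, 4 of the 7 tested members had every LYC library above every HFD library and 1 had every LYC library below. Over all genes tested these shares were 18.8% and 18.9%.

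Ratios of 2 genes within a library do not depend on scaling between libraries. The following 4 were chosen after their values were seen. The ratio of Dbi to Fabp1 was 0.253, 0.232 and 0.243 in HFD and 0.307, 0.290 and 0.332 in LYC, so Dbi stood higher relative to Fabp1 in every LYC library. The ratio of Fabp2 to Fabp1 was 0.0368 to 0.0437 in HFD and 0.0479 to 0.0622 in LYC. The ratio of Acsl4 to Acsl1, the long-chain synthetase gene with the highest levels here, was 0.0559, 0.0515 and 0.0623 in HFD and 0.101, 0.137 and 0.0713 in LYC. These 3 ratios did not overlap between the groups, and each had an exact permutation p of 0.10 (two-sided, the smallest possible at 3 against 3, adjusted p 0.133 over the 4). The ratio of Acsl4 to Acsl3 was 1.49 to 2.64 in HFD and 2.14 to 6.52 in LYC and overlapped (exact permutation p 0.20, adjusted p 0.20).

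The members were set beside 60 genes of the same functions, which include them. Of these, 49 had a read and 30 were tested, and the 3 calls were those of Fabp2, Acsl4 and Dbi. In the main setting the 23 tested genes that are not members had no call in either direction. Among all genes tested the shares called higher and lower were 7.02% and 6.29%. The log2 fold changes of the 23 were above 0 for 15 and below 0 for 8, with a median of 0.44. As the members were chosen with earlier results of these data known, their contrast with these genes was not tested. With edgeR on recovered reads 5 listed genes, 3 of them members, were called higher. With scaling by total library size 3, 1 of them a member, were called lower.

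Among FABP genes outside the members, Fabp3 (heart form) had 18 reads in HFD and 0 in LYC and was not tested, and Fabp6, Fabp9, Fabp12 and Pmp2 had no reads. Of 5 tested acyl-CoA binding genes, only Dbi was called, and 4, Dbi included, had log2 fold changes above 0. The most abundant of them was Scp2, sterol carrier protein, with 1176 to 1349 RPKM in HFD, 1346 to 2119 RPKM in LYC and a log2 fold change of 0.70 (adjusted p = 0.113 in limma, not called).

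Of 4 tested long-chain synthetase genes, Acsl4 was called. Acsl1, the most abundant, had 262, 294 and 222 RPKM in HFD and 339, 276 and 258 RPKM in LYC, with a log2 fold change of 0.46 (adjusted p = 0.25 in limma). Acsl5, known from the gut and from mitochondria and singled out here after its values were seen, had 160, 175 and 141 RPKM in HFD and 57.9, 61.2 and 114 RPKM in LYC, with a log2 fold change of -0.79 (adjusted p = 0.116 in limma, not called).

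The 3 tested SLC27 genes had log2 fold changes below 0 and none was called. Slc27a2, the most abundant, had a log2 fold change of -0.46 (adjusted p = 0.311 in limma). Slc27a5, which joins bile acids as well as very long-chain fatty acids to coenzyme A, was singled out after its values were seen. It had 377, 475 and 362 RPKM in HFD and 137, 134 and 237 RPKM in LYC. Its log2 fold change was just inside the limit at -0.998 (SE 0.28, adjusted p = 0.0521 in limma), and every LYC library lay below every HFD library.

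None of the 8 tested short- and medium-chain synthetase genes was called. Acsm1, the most abundant, had a log2 fold change of 0.75 (adjusted p = 0.0799 in limma). Neither of the 2 tested uptake genes was called, with log2 fold changes of 0.10 for the scavenger receptor Cd36 and -0.10 for Got2. None of the 5 tested thioesterase genes, whose products reverse activation, was called. Acot13, the most abundant of these, had a log2 fold change of 0.99 (adjusted p = 0.0875 in limma).

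**Figure D3:**
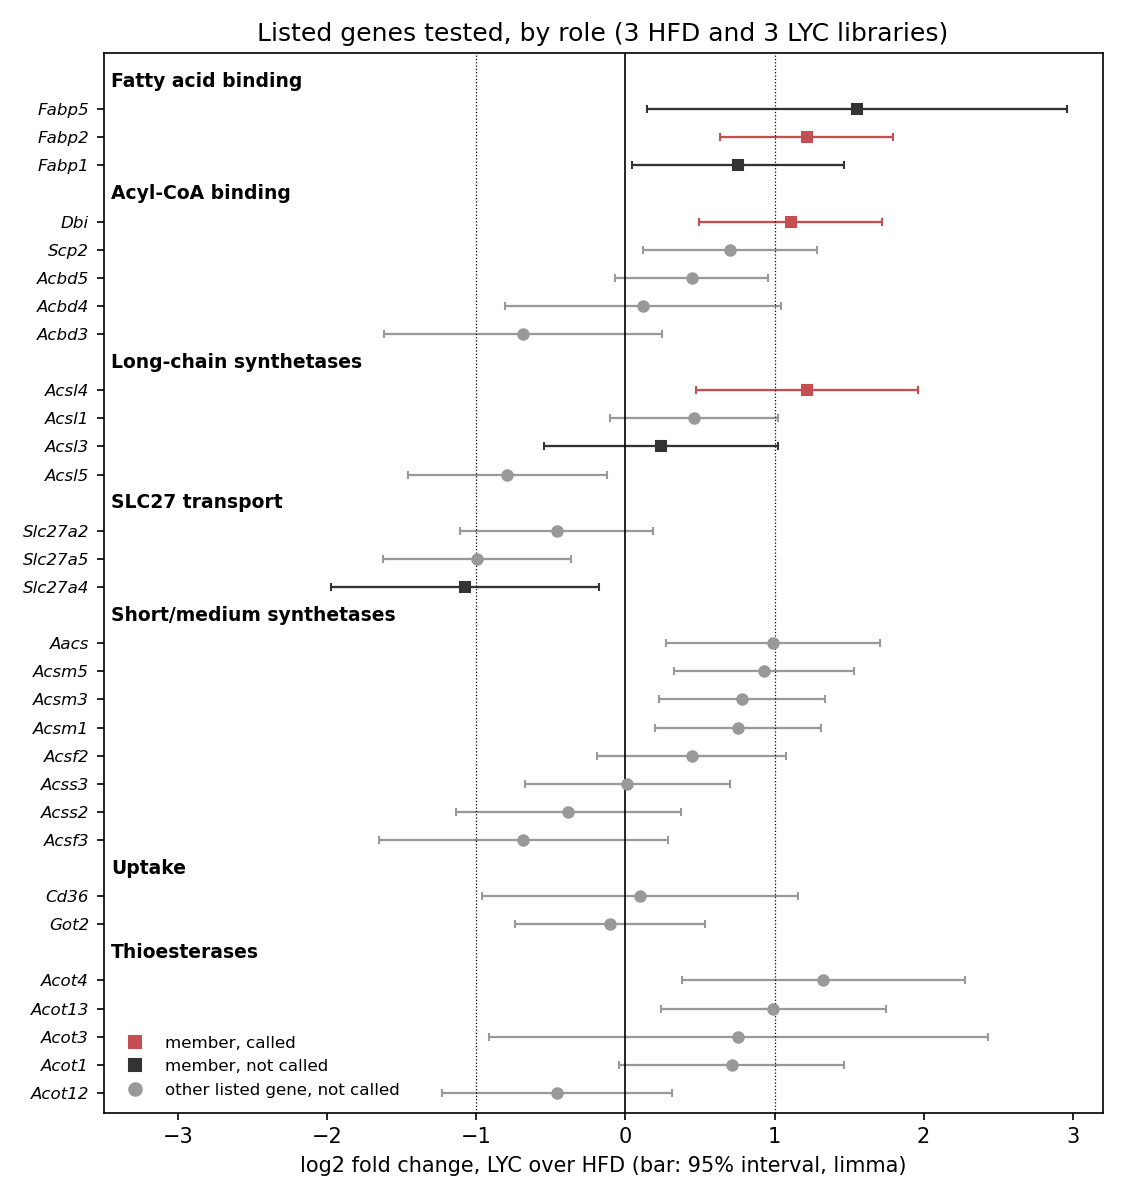
Log2 fold change of LYC over HFD with its 95% interval from limma for the 30 tested genes, grouped by role, with squares for members, circles for other listed genes and red for calls. Dotted lines mark the fold limits at -1 and 1. The 3 red squares are Fabp2, Dbi and Acsl4, and all 3 SLC27 genes lie left of 0.

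The tested genes whose values over the 6 libraries were most like those of Fabp1 were Adtrp, Ephx2 and Ankrd52. Their root mean square differences from it in centred log2 values were 0.062, 0.063 and 0.081. Ephx2, soluble epoxide hydrolase, had 349 to 438 RPKM in HFD and 420 to 784 RPKM in LYC. Dbi was 105th in this order (0.19) and Fabp2 339th (0.26) of the 5759 genes.

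**Figure D4:**
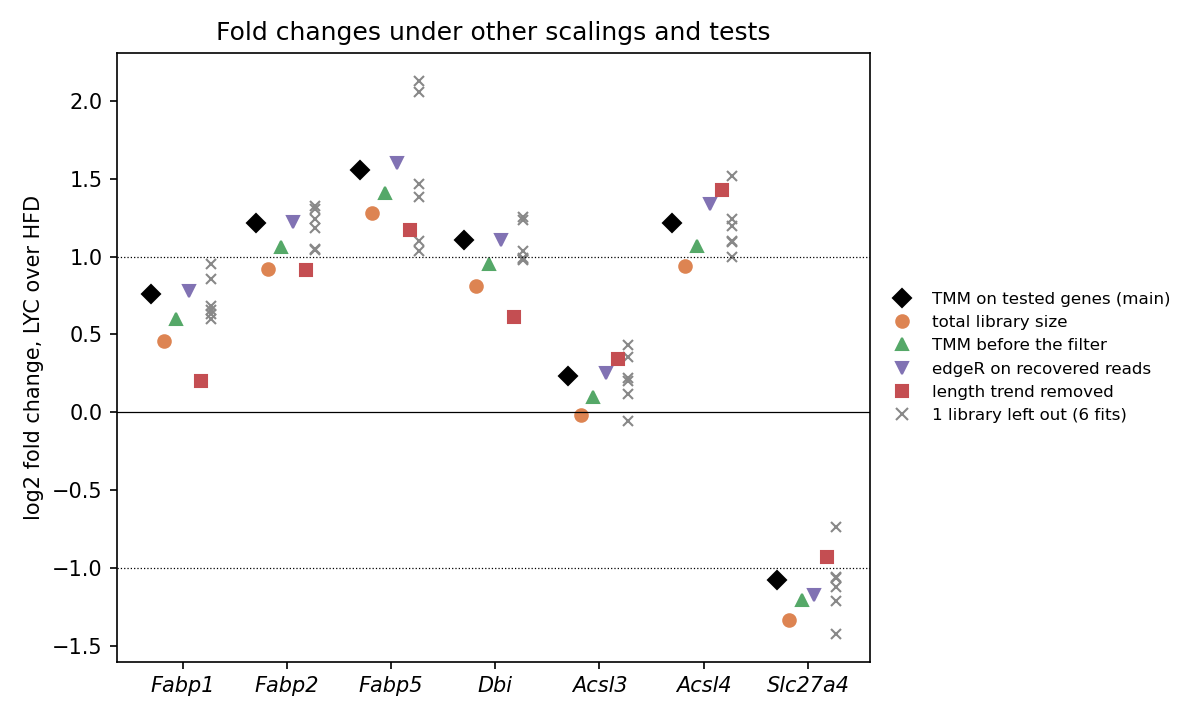
Log2 fold change of LYC over HFD of the 7 tested members under the main scaling and 4 other settings (coloured symbols) and with each of the 6 libraries left out in turn (crosses). Fabp1, Fabp2, Fabp5, Dbi and Acsl4 stayed above 0 and Slc27a4 below 0 in all settings drawn, while Acsl3 crossed 0.

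The table labelled as RNA-seq gave no independent measurement. Its counts for each library matched those of a single Ribo-seq library. Of 6426 genes with a mean of at least 20 reads, 64.8% to 84.4% agreed within 5% with the matching Ribo-seq library and at most 8.71% with any other. LYC1, LYC2 and LYC3 matched the Ribo-seq libraries of the same number, while the libraries labelled HFD1, HFD2 and HFD3 matched Ribo-seq HFD2, HFD3 and HFD1. Fabp2, for example, had 90, 119 and 95 reads in LYC1 to LYC3 in both tables. By edgeR's quasi-likelihood test on these counts Fabp2 (1.21), Acsl4 (1.36) and Dbi (1.11) were called higher and none of the members lower, beside 9.31% of 5921 genes called higher and 7.33% called lower. That table's own RPKM values overlapped between the groups for all 3, at 122 to 169 in HFD and 138 to 212 in LYC for Fabp2, 13.7 to 14.6 and 11.0 to 20.2 for Acsl4, and 793 to 973 and 761 to 1086 for Dbi. From the same reads, Fabp2 in LYC1 to LYC3 had 138, 212 and 143 RPKM there and 236, 396 and 239 RPKM in the Ribo-seq table. Neither set of RPKM values carries TMM scaling. The second table's RPKM are scaled by the sum of its own counts, since lengths derived that way were whole numbers for 100% of them. The Ribo-seq RPKM instead fit the library totals given above. The sets thus differ in the total used, and why the totals differ was not tested. On the second table's scale Fabp1 ran from 3261 to 3893 RPKM in HFD and from 2305 to 3791 RPKM in LYC. The counts are a recount of the same libraries, and no translational efficiency was computed.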

How the data were processed

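Per the study's methods, the authors cleaned the raw reads (cutadapt, Bowtie2), placed them on GRCm38/mm10 by STAR and counted per gene by FANSE2. They deposited Ribo-seq as RPKM. Versions and the footprint lengths kept are not given in the sources used here. The deposited second table also holds counts, which were tested with edgeR. The members and lists were chosen with earlier results of these data known. Whole reads were recovered from the RPKM steps (whole in all 6 libraries with the tabulated length for 11057 of 15749 genes above 0, with a fitted length for 4691 and rounded for 1) and used for filterByExpr and TMM (edgeR 4.0.16). The pseudocount was 1 RPKM, so fold changes of low genes are understated. Groups were compared with limma 3.58.1 (mean-variance trend, two-sided, Benjamini-Hochberg over all genes tested), after the limma test had been checked on simulated data (96.7% of 183 genes simulated with a log2 fold change of 2 recovered among 5610). Smaller changes, such as those of the called members, were not simulated. Calls used the fold and p limits of the study's Ribo-seq results (p below 0.01), while its methods name p below 0.001, which was run as an alternative. Named genes were the members, called genes, the most abundant gene of each list and up to 3 abundant markers of cells known for a member. Genes at or near 0, Cd36, Acsl5, Slc27a5, Pecam1, Cdh5, Kdr, Stab1, Stab2 and the hepatocyte genes were named outside this rule, after their values were seen. Also outside it were the genes most like Fabp1 and those sharing windows with a member. Alternatives were other scalings, pseudocounts, filters, tests (DESeq2 1.42.0 and edgeR on recovered reads), a replicate block, a length correction and leaving out each library. Intervals from reads cover counting error only. Left out were 4 entries that share a name, and 26 entries with a name turned into a date were kept but not named.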

Additional observations from a re-analysis of the deposited data

How the results depend on the processing

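Of 140 member log2 fold changes under 20 alternatives, 2 changed sign, both of Acsl3 (-0.018 with scaling by total library size and -0.057 without HFD2, within a range of -0.057 to 0.43 over the libraries left out). The other p limits, the other filters on low reads and the replicate block left the fold changes themselves as in the main setting. Those alternatives could not turn a sign, although they are part of the 140. With scaling by total library size 0 members were called higher and 1 lower, and 0 and 3 of the listed genes. With the length trend removed 1 member was called higher and 1 listed gene lower. With p below 0.001, 0 members and 0 listed genes were called higher. With TMM before the filter 2 members were called higher, Dbi losing its call. The count of listed genes called lower was 1 with TMM before the filter (chosen after seeing the data), a pseudocount of 0.25 or no filter, where the main count was 0. In edgeR and DESeq2 on recovered reads 3 members and 5 listed genes were called higher. Leaving out each library in turn gave 1 to 4 members higher and 0 to 1 lower, and 1 to 5 listed genes higher and 0 to 2 lower. In the second table it gave 0 to 1 members lower. With the replicate block 4 members (Fabp5 the addition) and 5 listed genes were called higher. Same-numbered libraries correlated at 0.11, 0.03 and 0.01 in their deviations, and other pairs at -0.10 to 0.07. With 3 libraries per group, these values cannot settle whether same-numbered libraries form pairs. Over all genes, 404 were called higher and 362 lower. These counts were 495 and 390 with edgeR on recovered reads, 311 and 474 with TMM before the filter, 196 and 99 with p below 0.001, 337 and 222 with a pseudocount of 5, 443 and 709 with no filter, and 268 to 570 and 142 to 702 with a library left out. In LYC, Fabp7 had 0 reads, Fabp4 5, Slc27a4 14, Acsl3 28 and Fabp5 36, which limits their precision. The cause of these dependences was not tested.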
